A study of Homo sapiens with 8 samples.

Results

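The collagen genes encode the chains of the collagen superfamily. They were taken as the 44 of 19974 protein-coding symbols of the RefSeq GRCh38 gene table, on chromosomes 1 to 22 and X, that read COL, digits, A, digits. By the textbook class of their product, 11 encode fibrillar chains, 6 encode the type IV chains of basement membranes and 27 encode other types. The mark measured was monomethylation of lysine 4 on histone H3 (H3K4me1), by ChIP-seq, which sequences the DNA that an antibody against the mark pulls down, in MDA-MB-231, an established cell line from a triple-negative breast tumour. MDA-MB-231 cells with ARID1A knocked out were set against MDA-MB-231 cells whose genotype is given as control, and no further treatment was labelled. ARID1A belongs to the SWI/SNF complex, which remodels chromatin. The labels do not say whether the knockout cells are 1 clone or a pool. Each genotype had 2 immunoprecipitated and 2 input samples, but 1 list of H3K4me1 peaks, so a value below belongs to a list and has no spread between replicates.

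Collagen chains fold in groups into a triple helix, built from short repeats that each begin with glycine. Fibrillar collagens are secreted as procollagens, trimmed and packed into the tension-bearing fibrils of connective tissue, whereas type IV chains form the sheet-like network of basement membranes. H3K4me1 marks enhancers and the shoulders of active promoters, usually with a gap over the start site itself. In tissue, collagen comes mostly from fibroblasts, but carcinoma cells of mesenchymal character make it too.

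For each gene, the bases lying under peaks were counted in a window made of its RefSeq record and 5 kb on either side. The call required at least 1000 covered bases more (higher) or fewer (lower) in the knockout list than in the control list. This is a rule of size and not a test. In a bulk immunoprecipitation, fewer cells with the mark and less mark per cell cannot be told apart. The paired type IV genes, and COL19A1 with COL9A1, have overlapping windows, so the 44 windows form 40 separate regions of 7361238 bases. Background to every count below comes from the lists as a whole. The knockout list held 73600 peaks on these chromosomes and the control list 82994, with median widths of 1587 (knockout) and 1386 bases (control) and median pileups (stacked fragments) of 16.4 (knockout) and 13.6 (control). No read total was used, and the depth behind a peak is unknown. The shortest peak was 361 bases in the knockout list and 312 in the control list, so the lists were not cut alike. A peak's strength is given as the authors' −log10 q of immunoprecipitate over input. Its median was 3.77 over the knockout list and 3.18 over the control list. The median fold over input was 3.07 (knockout) and 3.04 (control), and at single peaks the fold could order the lists otherwise.

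H3K4me1 peaks differed in both directions across the collagen genes. Coverage was higher in the knockout list at 12 of the 44 genes (27.3%, against 20.2% of all protein-coding genes). It was lower at 16 (36.4%, against 30.0% of all genes), and it differed by less than 1000 bases at the other 16. The median difference was 0 bases, as over all genes. Collagen records are long, with a median of 144672 bases against 24170.5 for all genes. Among records of at least 100 kb, 9 of 26 collagen genes (34.6%) were higher and 10 (38.5%) lower, against 32.0% and 44.9% of all 3351 such genes. Among shorter records the shares were 16.7% and 33.3% of 18 collagen genes, against 17.8% and 27.0% of 16623 genes. The balance of directions turned with stronger peaks alone. With −log10 q of at least 5, 14 collagen genes were higher (31.8%, against 26.7% of all genes) and 12 lower (27.3%, against 17.7%), so more genes were higher than lower there, in the family and over all genes. Within the length groups the collagen shares lay near those of all genes, so the counts are not a result about the family. Single genes differed more: COL8A1 had rank 12 among the deficits of all 19974 genes, and COL5A1 had rank 175 among the excesses.

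**Figure D1:**
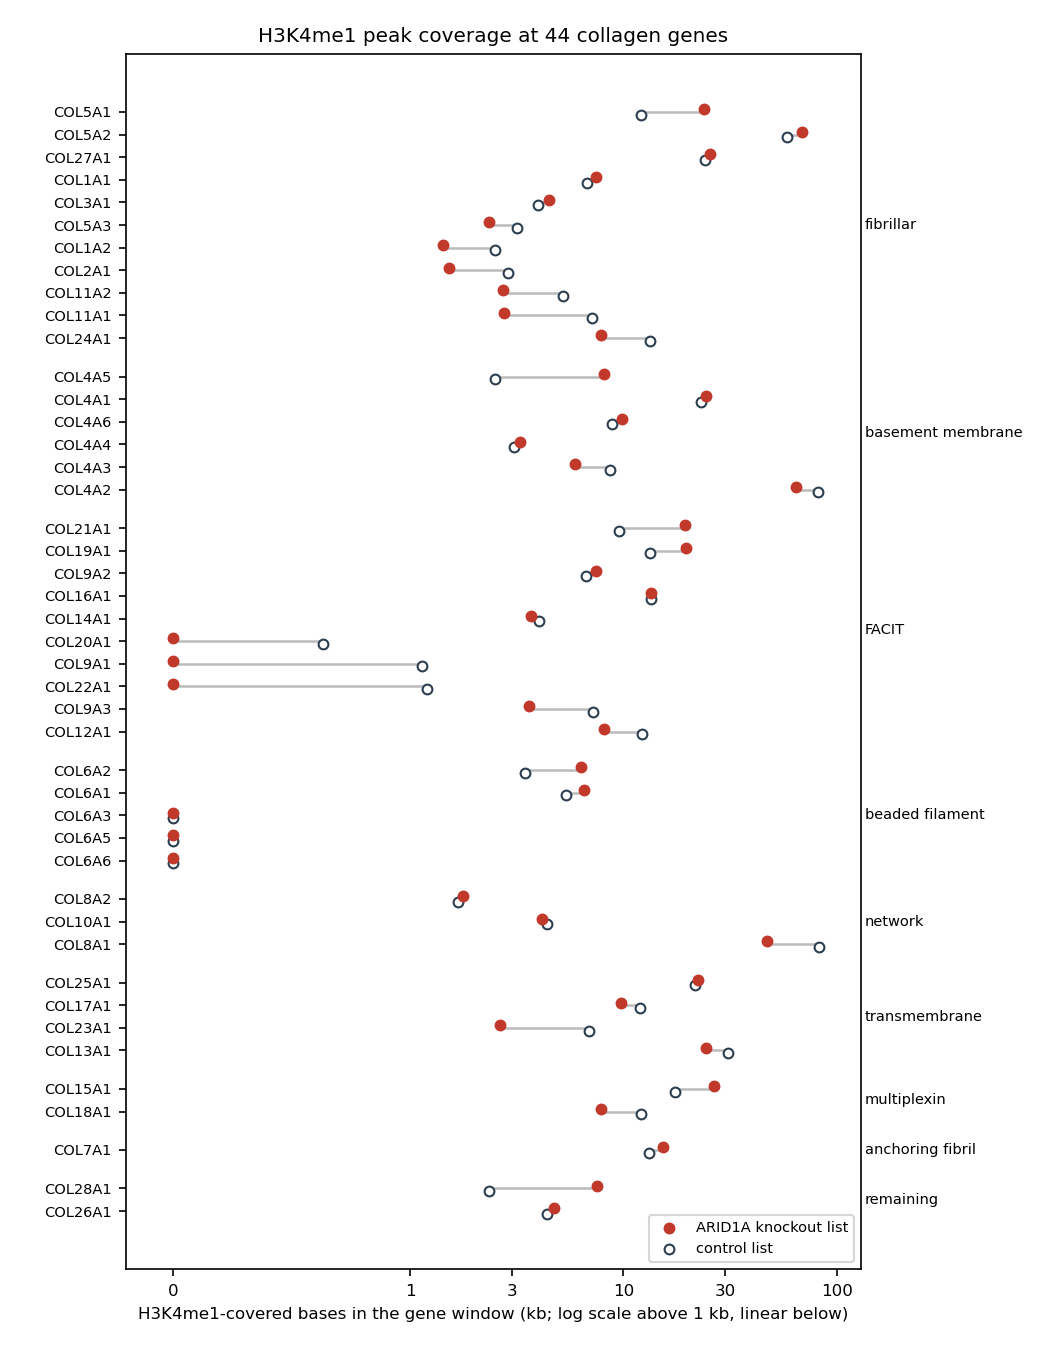
Covered bases (kb, log scale above 1 kb and linear below) of each of the 44 collagen genes in the ARID1A knockout list (filled) and the control list (open), grouped by class and ordered by difference within a class. Each point is the value of 1 list; the grey line joins the lists. COL5A1, COL4A5, COL21A1 and COL28A1 lie well to the right in the knockout list, and COL8A1, COL23A1 and COL11A1 well to the left.

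Before the values, the DNA at the collagen starts to which they refer is shown. The RefSeq promoter table of GRCh38.p14 held 32 of the 44 genes. COL1A1, COL1A2, COL2A1, COL3A1, COL5A2, COL6A1, COL6A5, COL8A1, COL9A3, COL14A1, COL20A1 and COL22A1 had no entry used here. Type IV genes lie head to head in pairs, each pair reading outward from a short shared interval. These intervals are shown because no peak of either list touched any of them. Capitals in all sequences mark matches, on either strand, to the searched motifs TGANTCA (AP-1), GGAATG (TEAD), GGGCGG (the GC box), CCAAT (the CCAAT box) and CACCTG (an E-box). The records of COL4A1 and COL4A2 are 126 bases apart (chr13:110307158-110307283), those of COL4A4 and COL4A3 135 bases (chr2:227164489-227164623), and those of COL4A6 and COL4A5 379 bases, of which the 250 nearest COL4A5 are given (chrX:108439588-108439837), all on the plus strand.
COL4A1 and COL4A2: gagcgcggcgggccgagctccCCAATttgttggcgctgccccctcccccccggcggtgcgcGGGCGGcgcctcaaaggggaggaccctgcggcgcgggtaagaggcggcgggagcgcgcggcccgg
COL4A4 and COL4A3: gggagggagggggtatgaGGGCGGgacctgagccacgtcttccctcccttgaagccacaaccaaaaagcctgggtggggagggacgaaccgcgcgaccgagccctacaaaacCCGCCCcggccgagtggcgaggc
COL4A6 and COL4A5: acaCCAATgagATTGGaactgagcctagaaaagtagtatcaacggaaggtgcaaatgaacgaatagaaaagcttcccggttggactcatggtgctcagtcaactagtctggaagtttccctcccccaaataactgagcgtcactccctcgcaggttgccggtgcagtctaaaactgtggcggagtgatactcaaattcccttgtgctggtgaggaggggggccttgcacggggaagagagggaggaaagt
The next 3 sequences are the 250 bases before the starts that were under a peak in the knockout list alone: COL12A1 (chr6:75206054-75206303, minus strand), COL18A1 (chr21:45404915-45405164, plus strand) and COL6A2 (chr21:46097862-46098111, plus strand).
COL12A1: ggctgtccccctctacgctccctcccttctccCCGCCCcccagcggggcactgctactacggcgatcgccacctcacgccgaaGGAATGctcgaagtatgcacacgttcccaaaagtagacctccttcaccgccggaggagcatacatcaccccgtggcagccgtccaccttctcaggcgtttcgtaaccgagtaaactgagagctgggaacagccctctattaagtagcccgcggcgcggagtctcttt
COL18A1: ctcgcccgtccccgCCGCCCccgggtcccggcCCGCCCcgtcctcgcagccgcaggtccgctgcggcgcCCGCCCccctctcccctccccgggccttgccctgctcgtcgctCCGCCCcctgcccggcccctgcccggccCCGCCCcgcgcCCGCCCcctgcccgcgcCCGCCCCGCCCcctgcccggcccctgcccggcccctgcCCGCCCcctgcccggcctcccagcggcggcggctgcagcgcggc
COL6A2: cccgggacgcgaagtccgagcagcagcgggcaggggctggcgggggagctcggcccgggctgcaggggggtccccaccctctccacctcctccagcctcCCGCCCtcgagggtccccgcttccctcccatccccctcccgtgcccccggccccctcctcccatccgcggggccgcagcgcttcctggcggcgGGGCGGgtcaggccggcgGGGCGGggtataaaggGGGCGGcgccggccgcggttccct
The last is the same stretch at COL5A1 (chr9:134641553-134641802, plus strand), which had the largest excess of the family, and whose start was under no peak in either list.
COL5A1: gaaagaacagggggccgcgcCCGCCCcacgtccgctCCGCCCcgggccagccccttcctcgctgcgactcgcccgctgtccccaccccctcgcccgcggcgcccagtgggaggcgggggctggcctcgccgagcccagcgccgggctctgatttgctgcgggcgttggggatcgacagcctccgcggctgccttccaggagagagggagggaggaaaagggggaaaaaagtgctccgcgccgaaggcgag
With a gene counted once if any of its listed starts had a match, the GC box stood before 21 of the 32 collagen genes (65.6%, against 62.1% of the 15812 genes in the table). It occurred 9 times before COL18A1, overlaps counted, and 4 times before COL6A2. The CCAAT box was found at 11 genes (34.4% against 40.2%) and CACCTG in 5 (15.6% against 21.5%). GGAATG was found at 3 (9.38% against 13.5%), COL12A1 among them, and TGANTCA in 1 (3.13% against 7.09%), that of COL10A1. A match describes letters in this window only.

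Among the fibrillar genes, coverage was higher in the knockout list at 3 of 11 (27.3%, against 20.2% of all genes) and lower at 5 (45.5%, against 30.0%), with a median difference of −825 bases. With −log10 q of at least 5, 3 were higher and 3 lower. The genes called higher with all peaks, COL5A1, COL5A2 and COL27A1, have records of at least 100 kb. So do COL11A1 and COL24A1 among the lower ones. Of all genes of that length, 32.0% were higher and 44.9% lower. The 2 large excesses fell on the type V chains, which take part in starting type I fibrils and set their diameter. At COL5A1 (chr9:134641803-134844843) 7 peaks of each list covered 11.2% of the window in the knockout list and 5.65% in the control list. The 4 stronger knockout peaks, of 4958, 6702, 4329 and 5966 bases, lay at the 5′ end of the gene, where the control list had 7 narrower peaks of 539 to 3932 bases. The 3 other knockout peaks had no control overlap and were weak, with −log10 q of 1.47, 1.58 and 2.32. So the same neighbourhood was marked in both lists, more broadly in the knockout list. With peaks of −log10 q of at least 5 alone, COL5A1 had 21443 bases in the knockout list and 11488 in the control list. The strongest COL5A1 peak was 11.2 in the knockout list and 12.5 in the control list on the −log10 q scale. These strongest peaks lay at different places. Where the knockout list had 11.2, the control list had peaks of 8.86 and 10.9. Where the control list had 12.5, the knockout list had 10.4.

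COL5A2 encodes the partner type V chain and lies on chromosome 2 (chr2:189031898-189441111), next to COL3A1. It had 31 knockout peaks over 68846 bases and 27 control peaks over 58773 bases. Of these, 7 knockout and 4 control peaks had no overlap in the other list (whole lists 21.3% knockout, 28.2% control). The record is 409214 bases long and had no listed start, so where these peaks lie relative to a start was not examined. Its window also reaches WDR75. Without the bases of that record, COL5A2 had 65447 bases in the knockout list and 54981 in the control list. Among peaks of −log10 q of at least 5 the gap was wider, with 51202 bases in the knockout list and 31824 in the control list, and the strongest peak reached 17.2 in the knockout list and 13.8 in the control list. The remaining type V gene, COL5A3, had 2348 bases in the knockout list and 3173 in the control list, which is under the size called.

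The genes of the main structural fibrils, types I and III, differed in how much mark they carried. COL1A1, which encodes the major type I chain, had 4 peaks in each list over 7451 bases in the knockout list (27.1% of its window) and 6743 in the control list (24.5%). COL1A2, its partner chain, had 1 knockout peak over 1427 bases and 2 control peaks over 2498 bases. COL3A1, the type III chain of elastic tissues and vessel walls, had 4472 bases in the knockout list and 3990 in the control list. Of these 3 genes COL1A2 alone was called, and its peaks were weak, the strongest at 2.91 in the knockout list and 2.51 in the control list.

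The genes of type XI and type II collagen, COL11A1, COL11A2 and COL2A1, were lower in the knockout list. COL11A1, a type XI chain that nucleates cartilage fibrils, had 1 knockout peak over 2748 bases and 4 control peaks over 7096 bases. All of these lay at least 166000 bases from its start. COL11A2 had 2719 bases in the knockout list and 5200 in the control list, and COL2A1, the type II chain, had 1523 knockout and 2869 control bases under a single peak of each list. COL24A1, a fibrillar chain found in developing bone, had 7839 bases in the knockout list and 13245 in the control list, both resting mainly on 1 intragenic peak of 6868 bases in the knockout list and 9089 in the control list. In that peak the knockout list was narrower but stronger, at 9.98 against 7.26 in the control list. COL27A1, a fibrillar chain of cartilage and other tissues, was called higher by a small margin, with 25439 bases in the knockout list and 24177 in the control list, and its sign turned with 10 kb and 50 kb windows.

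Type IV collagen genes were higher in the knockout list at 2 of 6 and lower at 2, with a median difference of 586.5 bases. All 6 records exceed 100 kb, and 32.0% of all genes of that length were higher and 44.9% lower. At COL4A2, a chain of the network found in nearly all basement membranes, 15 knockout peaks covered 64757 bases and 14 control peaks covered 81541 bases. All 15 knockout peaks overlapped the control list, whereas 21.3% of the whole knockout list had no overlap. The control list held long unbroken blocks inside the gene, of 17790 and 14602 bases, over which the knockout list had pairs of shorter peaks of 6450 and 2130 bases and of 5014 and 5929 bases. The strongest COL4A2 peak had a higher −log10 q in the knockout list, at 25.9 against 17.6 in the control list. Its fold was 5.73 (knockout) and 5.65 (control). The lists had it at the same place, 134358 bases into the gene in the knockout list and 134140 in the control list. The input background implied by the peaks within 2.5 Mb of COL4A2, knockout over control, was 1.28 times the genome-wide ratio, and its part in the deficit was not tested. COL4A1, the partner chain, was called higher by 1212 bases (24247 in the knockout list, 23035 in the control list), and its sign turned under 4 of 7 alternatives.

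The starts of this pair were bare in both lists. The nearest peaks ended 1165 bases before and began 1687 bases after the COL4A2 start in the knockout list, and 1377 bases before and 1764 bases after it in the control list. The edges of these peaks thus lay at similar distances in both lists. The peak after the COL4A2 start was weaker in the knockout list, with −log10 q of 5.25, against 10.1 in the control list. The one before it had 7.53 in the knockout list and 6.70 in the control list, but a fold of 3.11 (knockout) and 3.61 (control).

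In each list, COL4A3, COL4A4, COL4A5 and COL4A6 had fewer covered bases than COL4A1 and COL4A2. COL4A3 had a single knockout peak over 5892 bases and 6 control peaks over 8638 bases. Of the 6, 4 had no knockout overlap, against 28.2% of the whole control list. COL4A4 differed little, with 3259 bases in the knockout list and 3054 in the control list. COL4A5, the X-linked chain altered in most families with Alport syndrome, had 5 knockout peaks over 8079 bases and 2 control peaks over 2502 bases. Every COL4A5 peak was weak, the strongest at 2.98 in the knockout list and 2.29 in the control list, so none remained at −log10 q of at least 5. The implied background at COL4A5 was 2.60 in the knockout list and 2.40 in the control list, at or next to the lowest value of each list (2.60 knockout, 2.40 control), so its ratio there is uncertain. COL4A6 had 9841 bases in the knockout list and 8873 in the control list.

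**Figure D2:**
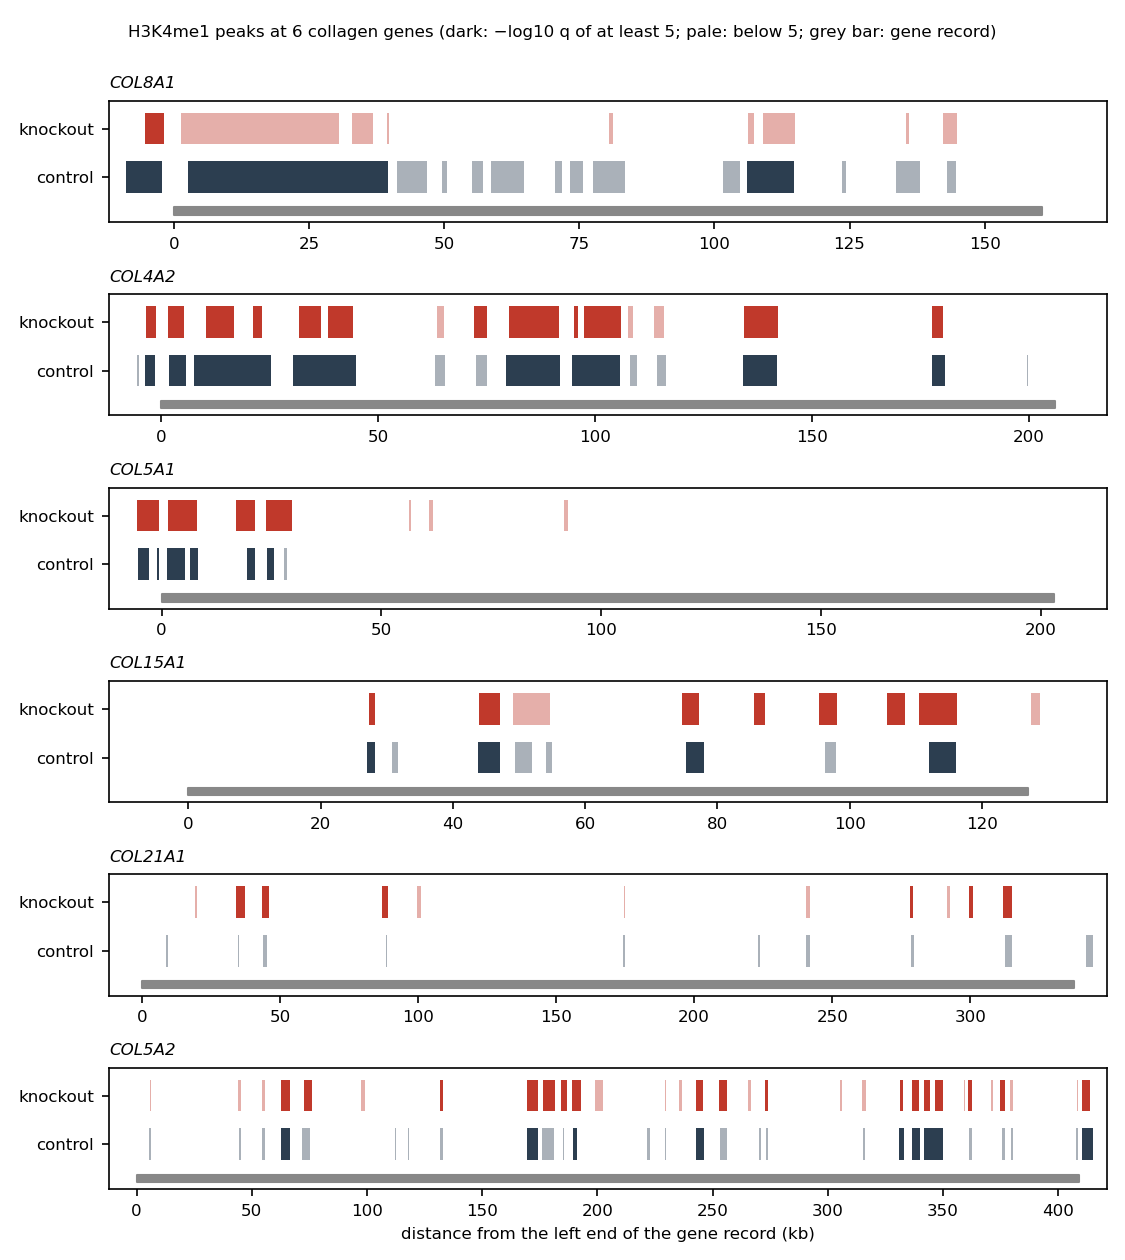
Peaks of the knockout list (upper row, red) and the control list (lower row, blue) at COL8A1, COL4A2, COL5A1, COL15A1, COL21A1 and COL5A2, against distance in kb from the left end of the RefSeq record (grey bar). Dark blocks have −log10 q of at least 5 and pale blocks less. At COL8A1 the control list has 14 peaks and the knockout list 9, with a single dark knockout block; at COL15A1 and COL21A1 more dark blocks are in the knockout list than in the control list.

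COL8A1 held the largest difference of the family. It encodes a short-chain network collagen of vessel walls and of the membrane beneath the corneal endothelium (chr3:99638594-99799217). Peaks covered 47107 bases of its window in the knockout list (27.6%) and 82751 in the control list (48.5%). Of 14 control peaks, 8 had no overlap in the knockout list, whereas all 9 knockout peaks overlapped the control list. The widest peak of each list within the collagen windows lay here, near the left end of the gene: 29098 bases in the knockout list (chr3:99639992-99669089, −log10 q 4.76) and 36873 in the control list (chr3:99641295-99678167, −log10 q 9.19). Among peaks of −log10 q of at least 5, 3144 bases were left in the knockout list and 48431 in the control list. The knockout block of 29098 bases, at 4.76, fell just under this threshold, and the control block of 36873 bases passed it. The 8 control peaks without overlap had −log10 q of 1.25 to 3.20 and held 22035 of the 38455 bases covered in the control list alone. The other 16420 were parts of control peaks that overlapped the knockout list, the wide block among them, which was weaker in the knockout list. The implied input background around COL8A1 was 0.715 times the genome-wide ratio, lower in the knockout list. Its part in the difference was not tested. The other network collagen genes, COL8A2 and COL10A1, differed by less than 1000 bases. At COL8A2 the knockout list had 1775 bases and the control list 1666, and at COL10A1 the knockout list had 4131 and the control list 4384.

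The FACIT collagens, which sit on the surface of fibrils and have interrupted triple helices, were higher in the knockout list at 2 of 10 genes (20%, against 20.2% of all genes) and lower at 4 (40%, against 30.0%). The higher genes, COL19A1 and COL21A1, and the lower genes COL12A1 and COL22A1 have records of at least 100 kb. Of all genes of that length, 32.0% were higher and 44.9% lower. COL21A1, a FACIT of vessel walls, had 11 knockout peaks over 19513 bases and 10 control peaks over 9568 bases. The difference was sharper among peaks of −log10 q of at least 5, with 14307 bases in the knockout list and none in the control list. At COL21A1, 4 of 11 knockout and 3 of 10 control peaks had no overlap in the other list. Over the whole lists that share was 21.3% (knockout) and 28.2% (control). The implied input background around COL21A1 was 1.80 times the genome-wide ratio, the highest of the called collagen genes, and its part in the difference was not tested. With peaks of a fold of at least 4, COL21A1 had no covered base in either list.

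COL19A1, a FACIT of muscle and brain, had 9 peaks in each list, over 19538 bases in the knockout list and 13315 in the control list. It held the strongest collagen peak found in the knockout list alone (chr6:69892120-69895782, −log10 q 9.76), 25564 bases into the gene. The strongest COL19A1 peak was shared, 50511 bases into the gene in the knockout list and 50331 in the control list. Its −log10 q was 17.1 in the knockout list and 14.6 in the control list, but its fold was 4.55 (knockout) and 4.97 (control). In the other direction, COL12A1, which links type I fibrils to other matrix, had 8110 bases in the knockout list and 12273 in the control list. One control peak of 8270 bases, 2348 bases downstream of the start, had no knockout overlap and a −log10 q of 3.33. It ended at base 75203705, just short of a knockout peak that began at base 75203739. COL9A3, a chain of the type IX collagen of cartilage, had 3586 bases in the knockout list and 7164 in the control list, with a regional background of 0.798 times the genome-wide ratio. COL22A1 and COL9A1 had no knockout peak, and 2 weak control peaks each, over 1203 (COL22A1) and 1138 bases (COL9A1).

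The 4 FACIT genes under the size called had these levels. COL16A1 had 13509 bases in the knockout list and 13491 in the control list, COL9A2 had 7469 knockout and 6696 control bases, and COL14A1 had 3692 knockout and 4018 control bases. COL20A1 had none in the knockout list and 631 bases in the control list.

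Type VI collagen forms beaded microfilaments around cells, and 2 of its 5 genes were called, both higher (40%, against 20.2% of all genes). These were COL6A1 and COL6A2, neighbours on chromosome 21. COL6A2 had 4 knockout peaks over 6318 bases and 2 control peaks over 3436 bases, and among peaks of −log10 q of at least 5 it had 4211 bases in the knockout list and none in the control list. COL6A1 had 3 peaks in each list, over 6548 bases in the knockout list and 5380 in the control list. COL6A3, the longest of the classical chains, and COL6A5 and COL6A6 had no peak in either list.

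The multiplexins COL15A1 and COL18A1, basement membrane proteoglycans whose ends can be cut off as anti-angiogenic fragments, differed in opposite directions. COL15A1 (chr9:98943907-99070787) had 9 knockout peaks over 26488 bases and 8 control peaks over 17493 bases. Its peaks were also stronger, the strongest at 22.6 in the knockout list and 12.2 in the control list, and its regional background was 0.939 times the genome-wide ratio. It held 2 of the 5 strongest collagen peaks found in the knockout list alone, at −log10 q of 7.45 (chr9:99029497-99031096) and 6.75 (chr9:99049605-99052280). COL18A1 had 7863 bases in the knockout list and 12137 in the control list, with its strongest peak at 10.2 in the knockout list and 7.65 in the control list. COL18A1 thus had less area and a stronger peak in the knockout list.

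The transmembrane collagens, which cross the plasma membrane and can be shed, were lower in the knockout list at 3 of 4 genes and higher at none, against 30.0% lower and 20.2% higher over all genes. Among all genes with records of at least 100 kb, as 3 of these 4 have, 44.9% were lower. COL13A1, found at cell–matrix junctions and the neuromuscular synapse, had 24410 bases in the knockout list and 30966 in the control list, but with peaks of −log10 q of at least 5 it had 21450 knockout and 21269 control bases. COL23A1 had 2 knockout peaks over 2641 bases and 7 control peaks over 6868 bases. Of the 7, 5 had no knockout overlap, against 28.2% of the whole control list. COL17A1, a hemidesmosome component of basal epithelial cells, had 3 peaks in each list over 9741 bases in the knockout list and 11945 in the control list. COL25A1, the precursor of a brain amyloid component, had 22315 bases in the knockout list and 21717 in the control list.

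COL7A1, the anchoring fibril collagen of the dermal–epidermal junction, had 37.1% of its window covered in the knockout list, the largest share of any collagen gene there, and 32.1% in the control list. It was called higher with 15297 bases in the knockout list and 13231 in the control list. Its window also holds PFKFB4, UCN2 and UQCRC1, and without the bases of these records the difference was 958 bases. COL28A1, whose chain carries von Willebrand factor A domains, had 3 knockout peaks over 7551 bases and 1 control peak over 2345 bases. The shared COL28A1 peak was 5240 bases wide in the knockout list and 2345 in the control list, with −log10 q of 10.4 (knockout) and 3.05 (control). COL26A1 differed by less than 1000 bases.

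**Figure D3:**
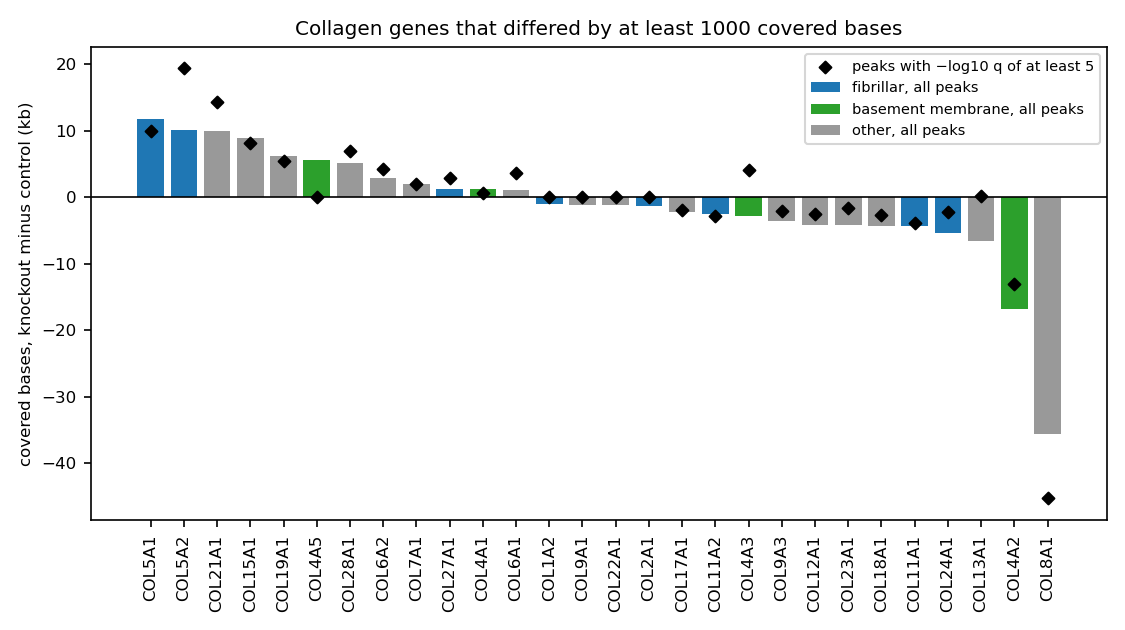
Difference in covered bases (kb, knockout minus control) of the 28 collagen genes called, ordered from the largest excess to the largest deficit and coloured by type; diamonds give the same difference with peaks of −log10 q of at least 5 alone. The diamond lies on the other side of 0 from the bar at COL4A3 and COL13A1, and at 0 at COL1A2, COL2A1, COL4A5, COL9A1 and COL22A1. It lies beyond the bar at COL5A2, COL6A1, COL6A2, COL8A1, COL11A2, COL21A1, COL27A1 and COL28A1.

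The called differences varied in how far they depended on the choice of window and peaks, as the plot of the 28 called differences shows. Under all 7 such alternatives, calls at 5 of the 12 higher genes were kept (COL5A1, COL5A2, COL6A2, COL15A1 and COL28A1). Calls at 4 of the 16 lower genes were kept (COL4A2, COL8A1, COL11A1 and COL18A1). The regional input background lay outside 0.8 to 1.25 times the genome-wide ratio, limits chosen after the data were seen, at 7 of the 28 called genes. These were COL4A1 and COL21A1, higher in the knockout list, and COL1A2, COL4A2, COL8A1, COL9A3 and COL11A1, lower in it. At the other 21 genes, 10 were higher and 11 lower.

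Counted by peaks, 198 knockout and 230 control peaks lay in the collagen windows. Of the knockout peaks, 40 had no control overlap (20.2%, 95% exact binomial interval 14.8 to 26.5), against 21.3% of the whole knockout list. Of the control peaks, 70 had no knockout overlap (30.4%, 24.6 to 36.8), against 28.2% of the whole control list. Both intervals hold the share of the whole list, and they cover counting error over peaks only. Besides those at COL19A1 and COL15A1, the strongest knockout peaks without overlap lay in COL21A1 (−log10 q 5.98) and COL18A1 (5.50). The COL18A1 peak overlapped the window of another listed start of that gene. The strongest control peaks without overlap lay in COL27A1 (7.82), COL16A1 (5.56), COL25A1 (4.70), COL4A1 (4.58) and COL19A1 (4.51).

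Collagen starts were mostly free of the mark in both lists. At least 1 listed start (the window of 250 bases before it and 50 after) was under a peak at 8 of 32 genes in the knockout list (25%, against 29.3% of 15812 genes). In the control list it was 5 of 32 (15.6%, against 20.2%), and at 24 genes (75%, against 66.0%) neither list covered it. COL5A3, COL7A1, COL17A1, COL19A1 and COL21A1 were covered in both lists. COL6A2, COL12A1 and COL18A1, 3 of the 32 collagen genes, were covered in the knockout list alone, and no collagen gene in the control list alone. Of all 15812 genes, 2187 had a start covered in the knockout list alone and 748 in the control list alone. More starts covered in the knockout list alone were thus seen over all genes too, which is not particular to the collagen genes.

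These 3 starts had a control peak close by, so the mark was next to them in both lists. At COL6A2 the knockout peak ran across the start for 4211 bases, whereas the control peak began 636 bases after it. At COL18A1 the knockout peak of 2106 bases covered the start and the control peak began 1384 bases away. At COL12A1 the knockout peak of 3030 bases covered the start, and the nearest control peak, of 400 bases, lay 388 bases from it. These knockout peaks had −log10 q of 7.99 at COL6A2, 1.92 at COL18A1 and 3.46 at COL12A1. COL17A1 and COL19A1 were similar in kind, with all 300 bases of the start window covered in the knockout list, against 23 (COL17A1) and 72 (COL19A1) in the control list. At COL5A3 the order was the reverse, with 95 bases covered in the knockout list and 300 in the control list.

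**Figure D4:**
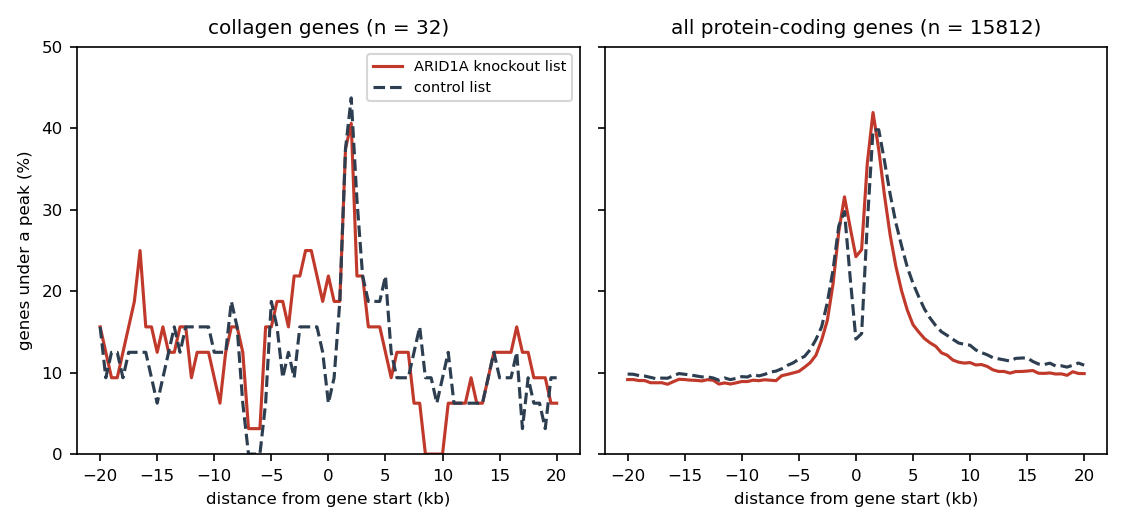
Share of genes (%) with a base under a peak, against distance in kb from the first listed start along the gene's direction, for 32 collagen genes (left) and 15812 protein-coding genes (right), in the knockout list (solid red) and the control list (dashed blue). At the start, 7 collagen genes are covered in the knockout list and 2 in the control list; over all genes the control list dips lower at the start, to 14.1%, against 24.2% in the knockout list.

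The profile around starts gives the same picture by distance. At the start base itself 7 of 32 collagen genes were covered in the knockout list (21.9%) and 2 in the control list (6.25%), against 24.2% (knockout) and 14.1% (control) of all genes. At 2 kb inside the gene the collagen counts were 13 in the knockout list and 14 in the control list (40.6% knockout, 43.8% control), against 37.4% (knockout) and 39.8% (control) of all genes. The lists thus differed more at the start base than 2 kb inside the gene, at collagen genes and across all genes. Under the same merging rule for both lists, 24.3% of all genes had a start window under a control peak. The collagen counts for that window were 8 in the knockout list and 5 in the control list as before. The shallower gap at starts was seen over all genes of the knockout list and is not particular to the collagen genes.

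Genes that modify, export, trim and bind collagen were counted in the same way. Of 43 such genes, 11 were higher in the knockout list (25.6%, against 20.2% of all genes) and 14 lower (32.6%, against 30.0%). The enzymes that modify the chains in the endoplasmic reticulum were lower at 8 of 15 genes (53.3%, against 30.0% of all genes) and higher at 2 (13.3%, against 20.2%). Of the 8, COLGALT2, PPIB and CRTAP had more bases in the knockout list with −log10 q of at least 5, and the others stayed lower. PLOD2, the lysyl hydroxylase that acts on the telopeptides used in stiff crosslinks, had more coverage in the knockout list, with 47494 bases in the knockout list and 25721 in the control list. P3H2, a prolyl 3-hydroxylase known to act on type IV collagen, had 73440 bases in the knockout list and 108032 in the control list, with an implied background ratio of 0.586 over its own peaks. Among the rest, PLOD1 was higher with 12569 bases in the knockout list and 11139 in the control list. P4HA1, a catalytic subunit of prolyl 4-hydroxylase, had 13919 knockout and 18361 control bases. COLGALT2, a collagen galactosyltransferase, had 7416 knockout and 10290 control bases. With −log10 q of at least 5, P4HA1 had 2205 knockout and 4393 control bases, whereas COLGALT2 had 6342 knockout and 3393 control bases.

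Of 8 folding and export genes, 4 were higher (50%, against 20.2% of all genes) and 1 lower (12.5%, against 30.0%). MIA3, whose product TANGO1 loads procollagen into transport carriers, had 9032 bases in the knockout list and 3006 in the control list. SERPINH1, the collagen chaperone HSP47, had 8131 bases in the knockout list and 5432 in the control list, and the prolyl isomerase gene FKBP7 had 8341 knockout and 6389 control bases. MIA2, a relative of MIA3, had 9062 bases in the knockout list and 10607 in the control list. Of 10 genes for propeptide removal, none was higher and 3 were lower (30%, as over all genes). These were ADAMTS14 (3968 bases in the knockout list, 6132 in the control list), PCOLCE, an enhancer of procollagen C-proteinase (1482 knockout, 3636 control), and the protease gene TLL2 (3385 knockout, 5054 control). With −log10 q of at least 5, MIA3, MIA2 and PCOLCE had no covered base in either list. SERPINH1 and FKBP7 stayed higher there, but SEC23A, also called higher with all peaks, had 0 knockout and 1492 control bases. CREB3L1 was lower there, with 20574 knockout and 23447 control bases. Of the propeptide genes, ADAMTS3 (4683 knockout, 1251 control) and PCOLCE2 (6905 knockout, 1449 control) were then higher. ADAMTS14 (0 knockout, 1345 control) stayed lower.

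Collagen receptors were higher in the knockout list at 5 of 10 genes (50%, against 20.2% of all genes) and lower at 2 (20%, against 30.0%). Of the higher genes, DDR2, ITGA1, ITGA2 and ITGA11 have records of at least 100 kb. Among all genes of that length 32.0% were higher and 44.9% lower. ITGA2, the gene of an integrin alpha chain that binds collagen with ITGB1, had 59062 bases in the knockout list and 30049 in the control list, under 6 broad peaks in the knockout list and 13 peaks in the control list. ITGA11, known as the fibrillar collagen receptor of mesenchymal cells, had 21875 bases in the knockout list and 17062 in the control list, and ITGA10 had 7297 knockout and 2895 control bases. MRC2, an endocytic collagen receptor, had 7413 bases in the knockout list and 10577 in the control list. The receptor kinase gene DDR1 had 3683 knockout and 6071 control bases. With −log10 q of at least 5, MRC2 had 7046 knockout and 9478 control bases, whereas DDR1 had 1899 knockout bases and none in the control list. MEP1B and GP6 had no peak in either list.

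**Figure D5:**
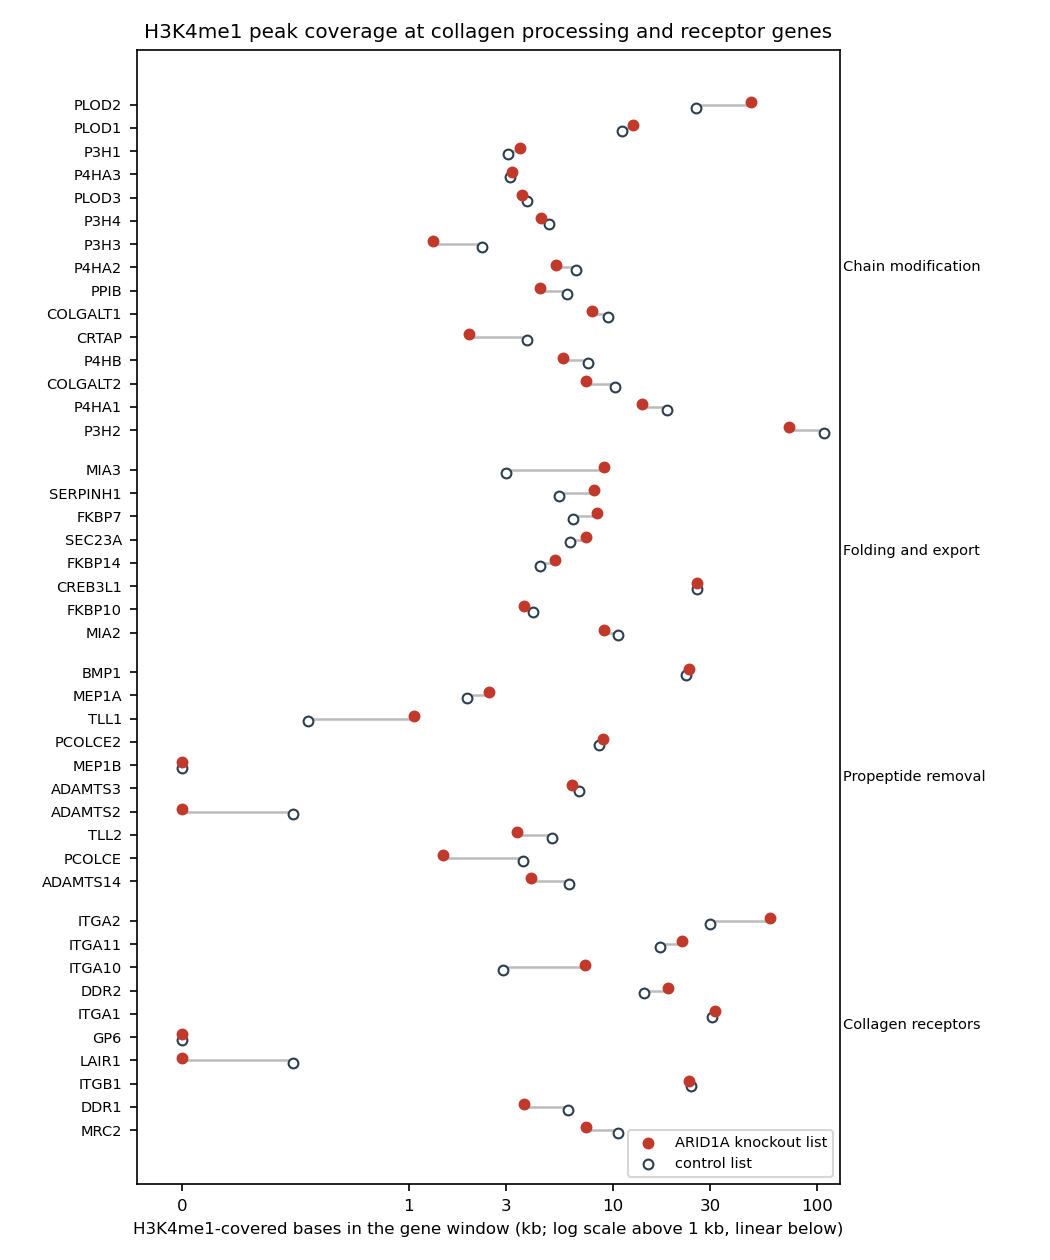
Covered bases (kb, log scale above 1 kb and linear below) of 43 collagen processing and receptor genes in the ARID1A knockout list (filled) and the control list (open), grouped by role. Each point is the value of 1 list. ITGA2, PLOD2 and MIA3 lie to the right in the knockout list and P3H2 and PCOLCE to the left, whereas ITGB1, CREB3L1 and BMP1 nearly coincide.

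The plot of the processing and receptor genes shows values of both lists close together at many genes and far apart at a few. The labelled line was checked on markers of its type. All 6 basal or mesenchymal markers had peaks in both lists (VIM, CD44, AXL, ZEB1, CAV1 and EGFR), and so had all 6 luminal markers, so presence of a peak alone does not tell the types apart. Coverage of the basal or mesenchymal markers was higher in the knockout list at CD44 (55499 bases in the knockout list, 44927 in the control list), ZEB1 (55704 in the knockout list, 47349 in the control list) and EGFR (94961 in the knockout list, 92086 in the control list) and lower at none. Summed over the 6, it was 246383 bases in the knockout list and 224351 in the control list. Luminal markers were lower at FOXA1, ERBB3 and KRT18 and higher at ESR1 (36816 bases in the knockout list, 27383 in the control list). Their sum was 64179 in the knockout list and 61078 in the control list. Over all genes 20.2% were higher and 30.0% lower, and these marker lists are short. With −log10 q of at least 5, KRT18 had 6833 knockout and 4262 control bases and FOXA1 none in either list. ERBB3 stayed lower and ESR1 higher there. Of 7 fibroblast markers, 5 had peaks in both lists, with 30748 covered bases in all in the knockout list and 31046 in the control list, and DCN and POSTN were at 0 in both. What part these marker differences, or cells of another type, had in the collagen differences was not tested.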

How the data were processed

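ChIP-seq of H3K4me1 covered MDA-MB-231 cells of each genotype, ARID1A knockout and control, as 2 immunoprecipitated and 2 input samples per genotype. Genotype and antibody labels set the groups. Micrococcal nuclease cut the chromatin, per the labels' protocols. Those protocols call the antibody anti-H3K4me3, but the antibody label and the sample titles give H3K4me1, the name kept in the report. The submitters' processing notes list Bowtie2 2.3.5.1, MACS2 2.2.6 and hg38. Their settings, and how the replicates entered the peak call, are not stated in those notes.

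For each genotype the authors deposited a single list of peaks. Per the file headers, each peak has a position, a pileup (a signal of stacked fragments), a fold (a ratio over input), and a −log10 q. The −log10 p also listed was not used. These values are the authors' and were used to describe, rank or filter peaks. The −log10 q and, at some peaks, the fold were also printed side by side for the lists. With depth unknown, a difference in −log10 q between the lists cannot be read as a difference in mark alone. No count of reads was used, so no depth could be given. The lists had different shortest peaks (361 bases knockout, 312 control) and smallest gaps (1445 and 1249), which changes how peaks merge.

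From the lists, covered bases were counted on chromosomes 1 to 22 and X in each RefSeq GRCh38.p14 record with 5 kb on either side, with Python 3.11.15, numpy 2.4.6 and pandas 2.3.3. GRCh38.p14 chromosomes share hg38 coordinates. The counting was tested on simulated data. A difference of at least 1000 bases was called, without a test, since each genotype had a single list. Exact (Clopper-Pearson) 95% intervals of shares came from scipy 1.17.1. Input background was estimated as (pileup + 1) / fold − 1, assuming the MACS2 default pseudocount of 1, as a median over peaks within 2.5 Mb of the gene, knockout over control, divided by the genome-wide ratio of 1.25.

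Every collagen gene past the call is named, the others by group or range, with up to 3 processing or receptor genes per role and direction, the 5 strongest single-list peaks of each list and the widest peak. The members, lists and tests were chosen with earlier results of these data known. Alternatives changed the window, the peak threshold, the merging and the size called. Leaving out bases of other protein-coding records, and the alternatives for starts and for processing genes, were added after the data were seen. Features of the collagen proteins were not analysed here.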

Additional observations from a re-analysis of the deposited data

How the results depend on the processing

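No paired analysis was possible because each genotype had 1 list, and for the same reason no replicate could be left out. With a fold of at least 4, calls were kept at 6 of 12 higher and 7 of 16 lower collagen genes, the fewest of the 7 window and peak alternatives. They were kept at 10 and 10 with −log10 q of at least 5, at 8 and 15 with 10 kb windows, at 9 and 14 with 50 kb, at 10 and 15 with the record alone, and at 11 and 16 with common merging and without other records. The sign turned at COL4A1 (−1569 bases with 10 kb windows, −12050 with 50 kb, −2905 with a fold of at least 4, −189 with common merging) and at COL27A1 (−1200, −3759 and −2092 with the first 3). It also turned at COL24A1 (6868), COL23A1 (957), COL19A1 (−714) and COL6A1 (−132) with a fold of at least 4, at COL4A3 (4048) and COL13A1 (181) with −log10 q of at least 5, at COL17A1 (3839) with 50 kb windows, and at COL7A1 (−94) with the record alone. When a ratio of at least 1.5 was also asked, 6 collagen genes were higher (13.6%, against 9.89% of all genes) and 12 lower (27.3%, against 15.5%). The median collagen difference was −173.5 bases with the record alone, −3.5 with 10 kb and −463 with 50 kb. When at least 50% of a peak had to be covered, 33.3% of knockout and 37.0% of control peaks had no overlap (whole lists 32.4% knockout, 38.3% control). With −log10 q of at least 5 it was 35.2% of knockout and 19.2% of control peaks, and in the whole lists 35.1% (knockout) and 24.9% (control), so the order of the lists turned in both. Alternatives chosen after the data were seen gave the rest. With −log10 q of at least 5, collagen genes with a start covered were 5 in the knockout list (15.6%, all genes 15.7%) and 2 in the control list (6.25%, all genes 8.25%). With a fold of at least 4 they were 3 in the knockout list (9.38%, all genes 5.65%) and 1 in the control list (3.13%, all genes 4.76%). At a call of 2000 bases, 7 processing and receptor genes were higher and 7 lower, against 11.0% and 18.7% of all genes. With the ratio it was 4 and 4, against 9.89% and 15.5% of all genes. Under each stricter peak threshold 9 were lower (all genes 17.7% with −log10 q of at least 5, 19.4% with a fold of at least 4). With −log10 q of at least 5 more of these genes were higher than lower, the reverse of all peaks. Over all genes 26.7% were higher there. The cause was not tested. With depth unknown, a weak peak missing from a list may have been missed at its depth.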

Other observations

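Beyond the windows, between 5 and 50 kb from the collagen records, 17 of the 44 genes had an excess of 1000 bases or more in the knockout list (38.6%, against 22.7% of all protein-coding genes) and 13 a deficit of that size (29.5%, against 38.3%). The median difference was 0 at the collagen genes and −290 bases over all genes. No test was made of these shares, and neighbouring collagen genes share flanks. COL6A3, which had no peak within 5 kb, had 32079 bases in the knockout list and 27107 in the control list at this distance. COL6A1 had 8633 bases in the knockout list and 4676 in the control list, COL6A2 had 6473 (knockout) and 3793 (control), and COL6A6 had 1968 (knockout) and 934 (control), whereas COL6A5 had none in either list. COL17A1, lower in the knockout list within its window, had 22101 bases in the knockout list and 16058 in the control list in this flank. Flanks at COL8A1 had 10610 bases in the knockout list and 17421 in the control list, on the same side as its window. At COL4A1 the flank had 33684 bases in the knockout list and 46946 in the control list, and it includes part of COL4A2. No value here has a replicate, and what else lies in these flanks was not examined.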
